A study of Mus musculus with 3 samples.

Results

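Mir155hg, Mir22hg and Mir17hg are spliced long non-coding transcripts that carry microRNA hairpins, and they were measured here in the cytosol of mouse macrophages. They are 3 of the 55536 genes in the gene tables and were chosen by name with their TPM (a level corrected for transcript length) and expected counts in these libraries already known. Their levels are therefore given as a description, and nothing is read for them from the one test they enter, that of the spread between libraries over all genes. The study holds 3 libraries of 1 group, given as biological replicates 1, 2 and 3. Primary bone marrow-derived macrophages of strain C57BL/6J received Lipid A (the active part of bacterial lipopolysaccharide) at 100 ng/ml for 12 h, were washed and rested for 12 h, and received 100 ng/ml again for 50 min. Ribosomal RNA was depleted from 1 µg of total RNA of the cytosolic fraction, and fragments ran from 250 to 400 bases. There was no untreated, singly treated or nuclear sample among the libraries analysed, so no value below is a response to Lipid A. The samples carry separate biosample entries but a single donor entry for the strain, sex and age were not collected, and the spread between them is that between 3 preparations of 1 strain.

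MicroRNAs are cut from hairpins within longer primary transcripts. Drosha and Dgcr8 release the hairpin in the nucleus, Xpo5 with Ran carries it to the cytosol, and Dicer1 trims it to the mature microRNA that an Argonaute protein loads. Bases 2 to 8 of the microRNA, its seed, pair with messages that are then repressed. Mir155hg, also known as Bic, is induced through Toll-like receptors in macrophages, and miR-155 is known for restraining Socs1 and Inpp5d, brakes on inflammatory signalling. Mir22hg gives miR-22, and Mir17hg gives the miR-17-92 cluster, known as oncomiR-1 and induced by Myc. The tables count host transcripts against annotated exons and not the microRNAs, and spliced and unspliced reads were not measured apart.

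The main microRNAs encoded by the 3 genes tie each host to its product. The sequences are RefSeq mature sequences on GRCm38.p6, 5′ to 3′, with the seed in capitals.
miR-155-5p: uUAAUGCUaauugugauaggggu
miR-155-3p: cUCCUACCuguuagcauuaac
miR-22-3p: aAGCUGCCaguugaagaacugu
miR-22-5p: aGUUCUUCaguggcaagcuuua
miR-17-5p: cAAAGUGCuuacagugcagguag
miR-20a-5p: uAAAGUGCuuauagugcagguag
miR-18a-5p: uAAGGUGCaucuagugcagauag
miR-19a-3p: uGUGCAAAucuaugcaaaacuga
miR-19b-3p: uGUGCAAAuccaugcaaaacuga
miR-92a-3p: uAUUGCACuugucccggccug
RefSeq listed 15 mature sequences for the 8 hairpins, with 13 distinct seeds. Within the Mir17hg cluster miR-17-5p and miR-20a-5p share 1 seed, and miR-19a-3p and miR-19b-3p share another. The miR-18a-5p seed, AAGGUGC, is close to the miR-17-5p seed, AAAGUGC, but is not the same. No seed was shared between hosts.

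Each hairpin lies in an exon of its host. The Mir155 hairpin (65 bases, chr16:84714140-84714204 on mm10, plus strand) holds both arms, here in capitals.
Mir155: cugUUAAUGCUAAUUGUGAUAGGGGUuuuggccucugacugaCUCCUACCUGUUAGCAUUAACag
The Mir22 hairpin (95 bases, chr11:75463716-75463810, plus strand) is shown in the same way.
Mir22: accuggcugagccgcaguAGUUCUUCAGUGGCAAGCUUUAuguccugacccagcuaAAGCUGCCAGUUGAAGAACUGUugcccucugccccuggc
The 6 hairpins of Mir17hg (Mir17, Mir18, Mir19a, Mir20a, Mir19b-1 and Mir92-1) stand in a row over 836 bases, chr14:115043671-115044506, plus strand, with 35 to 96 bases between neighbours. In the GENCODE M21 annotation all 8 hairpins fall wholly within exon 2 of every transcript of their host, in 5 of 5 transcripts. Across the genome 281 of 2207 annotated microRNA genes, 12.7%, lie wholly within an exon of another gene on the same strand. Since every transcript holds its hairpins, the share of host TPM on hairpin-bearing transcripts was 100% by annotation, and no value of these libraries enters it.

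**Figure D1:**
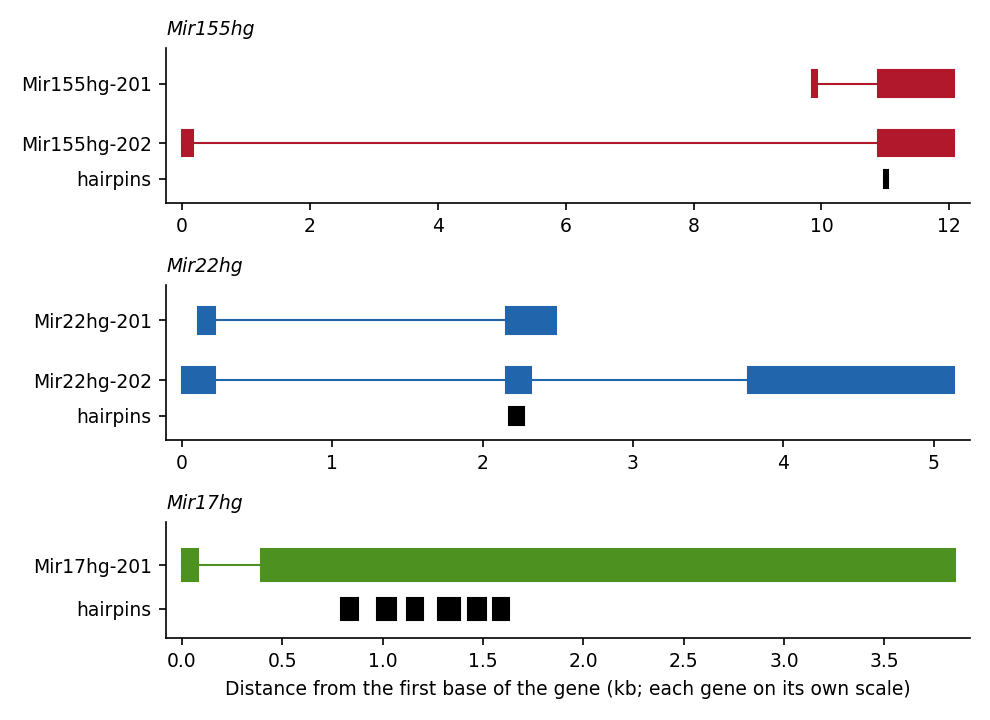
Exons (coloured boxes) and introns (lines) of the 5 annotated transcripts of the 3 host genes, with hairpins in black; the x axis is the distance in kb from the first base of each gene, on a scale of its own for each gene. All 8 hairpins sit under exon 2, and those of Mir17hg form a row of 6 within 836 bases.

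The hairpins themselves could not be read in these libraries. All 8 hairpin genes were listed at 0 counts in all 3 libraries, with an effective length (the number of positions at which a fragment of the library could start) of 0, so a count of 0 there sets no limit on the microRNA. Of the 2207 microRNA genes, 1 had a count of at least 1 in every replicate and 34 had any count. Reads that fall across a hairpin within a host were counted, if at all, to the host.

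Mir155hg was the highest of the 3 hosts on average and Mir17hg the lowest. Mir155hg (ENSMUSG00000097418.7, a lincRNA at chr16:84703167-84715245 on mm10, plus strand) had 28.6, 5.16 and 4.50 TPM in replicates 1, 2 and 3, or 12.8 ± 13.7 TPM (SD, n = 3). Replicate 1 stood far above the other two, and without it the mean was 4.83 TPM. In reads these are 2125, 550 and 336 expected counts. As CPM (reads scaled to a common library size with TMM factors) they are 41.7 CPM in replicate 1 (exact 95% Poisson interval 39.9 to 43.5), 10.2 CPM in replicate 2 (9.33 to 11.1) and 6.64 CPM in replicate 3 (5.94 to 7.38). The 3 intervals, which cover counting error only, did not overlap.

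Mir22hg (ENSMUSG00000085148.1, a processed transcript at chr11:75461539-75466676, plus strand) had 14.5, 5.72 and 5.91 TPM in replicates 1, 2 and 3, or 8.70 ± 5.0 TPM (SD, n = 3). Replicates 2 and 3 were close on this scale, and replicate 1 was again the high one. Its expected counts of 1219, 676.9 and 489.7 gave 23.9 CPM (22.6 to 25.3), 12.5 CPM (11.6 to 13.5) and 9.68 CPM (8.84 to 10.6). Mir22hg shares 206 of its 1924 exonic bases with Tlcd2, a protein-coding gene on the same strand that had 80.3, 76.1 and 66.3 counts. The deposited posterior SD of the Mir22hg count was 0.38 to 0.59 reads, so reads that the authors' quantifier could have given to either gene left its count open by less than 1 read. No annotated gene on the opposite strand shares exonic bases with any of the 3 hosts, which matters because the strand setting of the counting is not given in the sources used here.

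Mir17hg (ENSMUSG00000089726.2, a lincRNA at chr14:115042879-115046727, plus strand) was barely detected, with 0.22, 0.03 and 0.02 TPM in replicates 1, 2 and 3 (0.09 ± 0.113, SD, n = 3). These rest on 51, 9 and 4 reads, that is 1.00 CPM (0.745 to 1.32), 0.166 CPM (0.0761 to 0.316) and 0.0790 CPM (0.0215 to 0.202). A count of 0 would have allowed up to 0.0625, 0.0551 and 0.0561 CPM in the 3 libraries. These floors are 3 counts over the library total, without TMM factors. Replicates 2 and 3 overlapped in their counting intervals and replicate 1 lay above both.

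**Figure D2:**
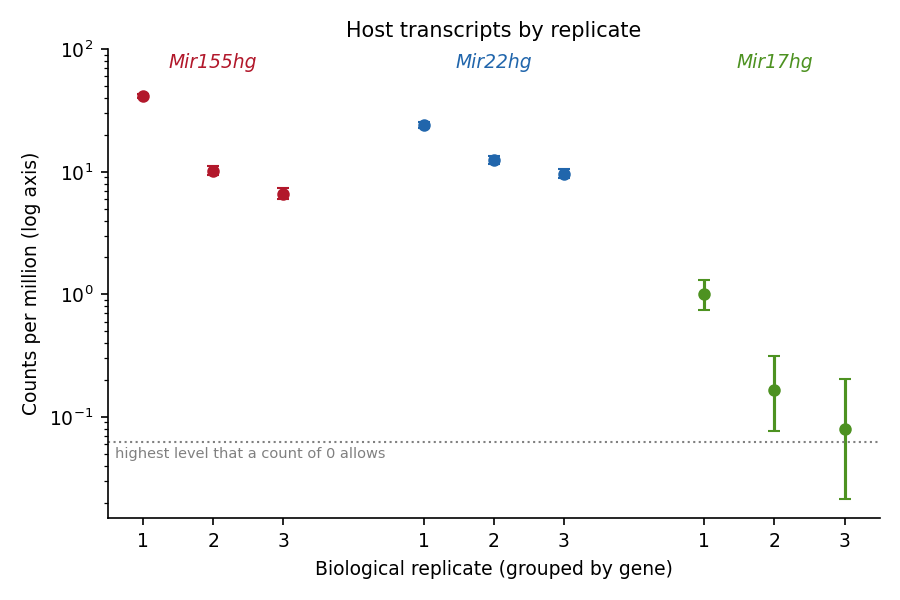
Level in CPM (TMM library sizes, log axis) of Mir155hg, Mir22hg and Mir17hg in biological replicates 1, 2 and 3. Points are libraries and bars are exact 95% Poisson intervals for counting error. The dotted line, 0.0625 CPM, is the highest level a count of 0 allows in any library, on library totals without TMM factors. All 3 genes are highest in replicate 1, at 41.7, 23.9 and 1.00 CPM.

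The order of Mir155hg and Mir22hg depended on the library. The TPM of Mir155hg divided by that of Mir22hg was 1.98 in replicate 1, 0.902 in replicate 2 and 0.761 in replicate 3, so the first 2 hosts did not differ beyond their spread. Mir17hg was below both in every library. Against 9059 expressed protein-coding genes (TPM at or above 1 in all 3 libraries), the level per length of Mir155hg was 2.93, 0.708 and 0.437 times the median coding gene in replicates 1, 2 and 3, and exceeded 79.6%, 38.8% and 24.8% of them. Mir22hg was 1.48, 0.785 and 0.574 times that median, and exceeded 62.5%, 42.1% and 32.9%. Both hosts were thus above the middle of the expressed coding genes in replicate 1 and below it in replicates 2 and 3. In a bulk sample, fewer cells with a transcript and less of it in each cell cannot be told apart.

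Most of the Mir155hg level was given to its shorter transcript, by a share that differed between the tables. Mir155hg-201 starts at base 84713023 and joins exon 1 of 71 bases to exon 2 of 1193 bases, 1264 in all. Mir155hg-202 starts 9856 bases upstream, at base 84703167, with an exon 1 of 169 bases and the same exon 2. In the first transcript table Mir155hg-201 held 2125, 550 and 316 counts and Mir155hg-202 held 0, 0 and 20.0, which put 98.2 ± 3.20% of the TPM on Mir155hg-201 (SD, n = 3). In the second transcript table Mir155hg-201 held 3299, 749.5 and 402.0 counts and Mir155hg-202 held 153, 154 and 91.0, which put 95.9%, 84.2% and 82.8% of the TPM on Mir155hg-201 in replicates 1, 2 and 3. Both tables gave most of the level to the downstream start, and they differed on whether the upstream start was used in replicates 1 and 2. The 2 transcripts share 1193 bases and differ only in exon 1, so few reads can separate them.

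Mir22hg was split between a long and a short transcript. Mir22hg-202 (3 exons, 1752 bases) had 1155, 638 and 461 counts in replicates 1, 2 and 3 of the first table, and Mir22hg-201 (2 exons, 449 bases) had 63.5, 38.9 and 29.0. After division by length these counts put 72.1 ± 0.917% of the TPM on Mir22hg-202 (SD, n = 3). The second table put 55.6 ± 3.38% there, with 174, 99.1 and 59.3 counts on the short transcript. The longer transcript led in all 3 libraries of both tables. Mir17hg has the single transcript Mir17hg-201 (3536 bases), with 59, 11 and 7 counts in the second table.

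The second table also counted more reads for Mir155hg than the first. Summed over the 3 libraries it gave 1.61 times as many for Mir155hg, 1.23 times for Mir22hg and 1.20 times for Mir17hg, against a median of 1.10 times over 13812 genes (quartiles 1.07 and 1.16). An excess as large as that of Mir155hg was found in 7.14% of those genes. In counts scaled to library size, the order of the replicates was the same in both tables for each host.

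**Figure D3:**
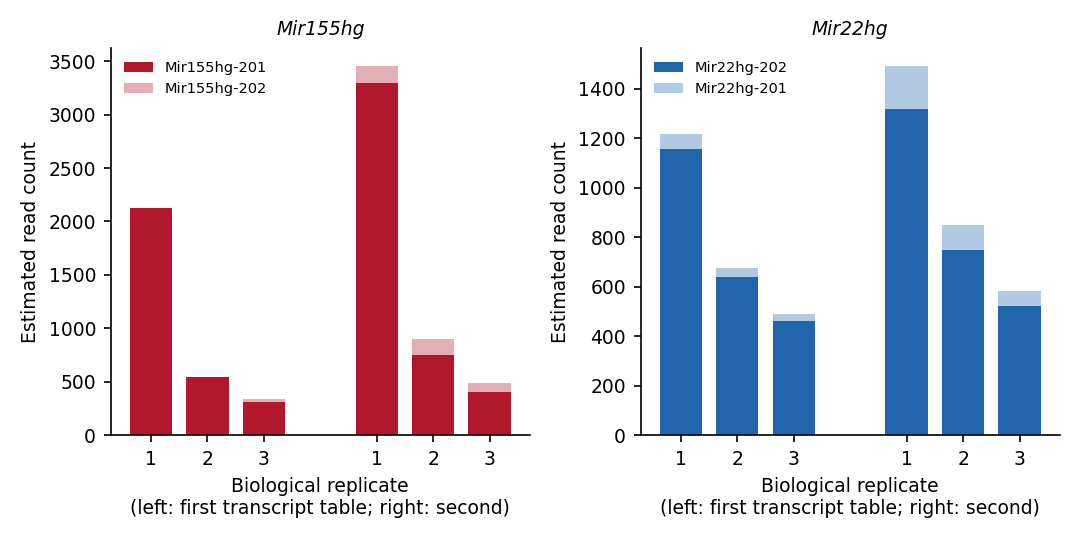
Estimated read counts of each transcript of Mir155hg and Mir22hg in replicates 1, 2 and 3, stacked, for the first transcript table (left bars) and the second (right bars) of each panel. Mir155hg-201 makes up nearly the whole bar in the first table, while in the second 153, 154 and 91.0 counts go to Mir155hg-202.

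The starts of Mir155hg-201 and Mir22hg-202, the transcripts that held most of each host's TPM, are also the RefSeq gene starts, so the RefSeq promoter windows (250 bases before the start to 50 after, plus strand, GRCm38.p6) apply to them. The Mir155hg window is chr16:84712773-84713072.
Mir155hg: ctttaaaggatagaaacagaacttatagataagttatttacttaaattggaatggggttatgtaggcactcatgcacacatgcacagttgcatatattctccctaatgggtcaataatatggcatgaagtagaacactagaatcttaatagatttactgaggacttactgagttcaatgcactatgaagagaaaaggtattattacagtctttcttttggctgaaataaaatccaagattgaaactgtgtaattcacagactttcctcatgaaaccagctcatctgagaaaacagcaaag
The Mir22hg window is chr11:75461289-75461588, with a match to the NF-kB letters GGGNNNNNCC in capitals.
Mir22hg: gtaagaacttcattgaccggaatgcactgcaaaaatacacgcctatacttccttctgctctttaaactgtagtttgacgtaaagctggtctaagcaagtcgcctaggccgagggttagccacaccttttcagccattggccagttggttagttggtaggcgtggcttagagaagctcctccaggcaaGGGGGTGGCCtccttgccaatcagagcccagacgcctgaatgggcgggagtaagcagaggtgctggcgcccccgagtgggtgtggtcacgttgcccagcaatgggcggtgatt
The letters GGGNNNNNCC were searched on both strands, and the Mir22hg window held 1 match, at bases -63 to -54 from the start. They occur in 50.8% of 32851 RefSeq promoter windows, so a match is common. The Mir155hg window held none, and neither window held the AP-1 letters TGANTCA, which occur in 7.81% of windows. The absence of these letters says nothing about sites outside the window or about other letters a factor may bind.

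In CPM all 3 hosts were highest in replicate 1 and lowest in replicate 3; in TPM replicate 1 was also highest for each, but Mir22hg was lowest in replicate 2. With 0.5 added to CPM, the highest library exceeded the lowest 5.91-fold for Mir155hg, 2.40-fold for Mir22hg and 2.59-fold for Mir17hg. Without the added 0.5 these were 6.28-fold (95% interval for counting error 5.60 to 7.07), 2.47-fold (2.22 to 2.75) and 12.7-fold (4.66 to 48.3). With 0.5 added, 29 of the 13827 genes whose mean count reached 10 (0.210%) had a ratio as large as the 5.91 of Mir155hg. The share was 3.80% for the 2.40 of Mir22hg and 3.10% for the 2.59 of Mir17hg. The median ratio over all those genes, also with 0.5 added, was 1.23. The biological coefficient of variation (edgeR, tagwise) estimates the replicate spread beyond counting error, with each gene drawn towards the trend over all genes. It was 0.585 for Mir155hg, 0.311 for Mir22hg and 0.817 for Mir17hg, against a median of 0.166. It is thus not the spread of the gene alone, which for Mir155hg was 19.5 ± 19.3 CPM (SD, n = 3). A Poisson chi-square across the 3 libraries (Benjamini-Hochberg adjusted p under 0.05) called 3 of 3 hosts and 70.4% of all 13827 genes tested, and nothing is read from the count of hosts.

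Replicate 1 carried most of this spread. Without it the ratio of replicate 2 to replicate 3 was 1.50-fold for Mir155hg, 1.28-fold for Mir22hg and 1.15-fold for Mir17hg (0.5 added to CPM). Replicate 1 was not the high library in general, since 29.5%, 32.4% and 38.0% of the tested genes were highest in replicates 1, 2 and 3. RNAs listed as retained in the nucleus had the same order of libraries. Malat1 had 5966, 3089 and 1426 CPM in replicates 1, 2 and 3, and Neat1 had 636, 248 and 128 CPM. Gm26917 and Kcnq1ot1 followed the same order, so that 4 of 4 listed RNAs were highest in replicate 1 and lowest in replicate 3. The ratio was 4.18-fold for Malat1, 4.95-fold for Neat1, 8.69-fold for Kcnq1ot1 and 9.41-fold for Gm26917. With no nuclear sample, whether each of these RNAs is nuclear in these cells was not tested. Per 1000 counts of Malat1, Mir155hg had 6.99, 3.29 and 4.65 counts in replicates 1, 2 and 3, Mir17hg had 0.168, 0.0539 and 0.0554, and Mir22hg had 4.01, 4.05 and 6.79. Beside Malat1, replicate 1 thus stayed the highest for Mir155hg and Mir17hg, and replicate 3 became the highest for Mir22hg. The part of nuclear RNA in the spread of the hosts was not tested.

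The same tilt towards replicate 1 was found among long non-coding RNAs more often than among coding genes. Of 1003 tested long non-coding genes, 544 (54.2%) were highest in replicate 1, against 2870 of 11669 protein-coding genes (24.6%). At least a doubling of replicate 1 over replicate 3 on the log2(CPM + 0.5) scale, a difference of 1 or more, was found in 15.2% of long non-coding and 0.823% of protein-coding genes. On that scale Mir155hg differed by 2.56, Mir22hg by 1.26 and Mir17hg by 1.37, against a median of -0.03 over all tested genes. These counts of classes were made after the values of the hosts were seen.

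Among hosts of other microRNAs, 2 of 3 non-coding and 5 of 17 protein-coding genes tested were highest in replicate 1. Of 26 such genes (7 with a symbol of the form Mir...hg, and 19 named hosts), 17 were expressed by the same measure, and 19 of 29 were with Mir155hg, Mir22hg and Mir17hg included. The 17 protein-coding hosts tested stayed within 1.48-fold between libraries. Evl, an actin regulator that hosts Mir342, was the highest at 112 ± 18.2 TPM, and Huwe1, a ubiquitin ligase that hosts Mir98, moved least, by 1.02-fold. Among the 3 non-coding hosts tested, Mir99ahg had 11.0, 3.40 and 1.40 CPM in replicates 1, 2 and 3 (6.05-fold), and Dleu2, host of Mir15a and Mir16-1, had 24.4, 12.7 and 7.72 CPM (3.03-fold). The third, Mir142hg, the host of a microRNA of blood cells, had 0.334, 0.518 and 0.356 CPM, and its highest library was replicate 2. In TPM, which corrects for length, Mir142hg had 3.69, 4.10 and 3.18, and so it counted as expressed on few reads. Mir99ahg had 4.98, 1.20 and 0.82 TPM and did not count as expressed, although its CPM was higher in each library. Mir124-2hg, Mir124a-1hg, Mir133a-1hg and Mir9-3hg, hosts of microRNAs known from brain or muscle, were listed at 0 in all 3 libraries.

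**Figure D4:**
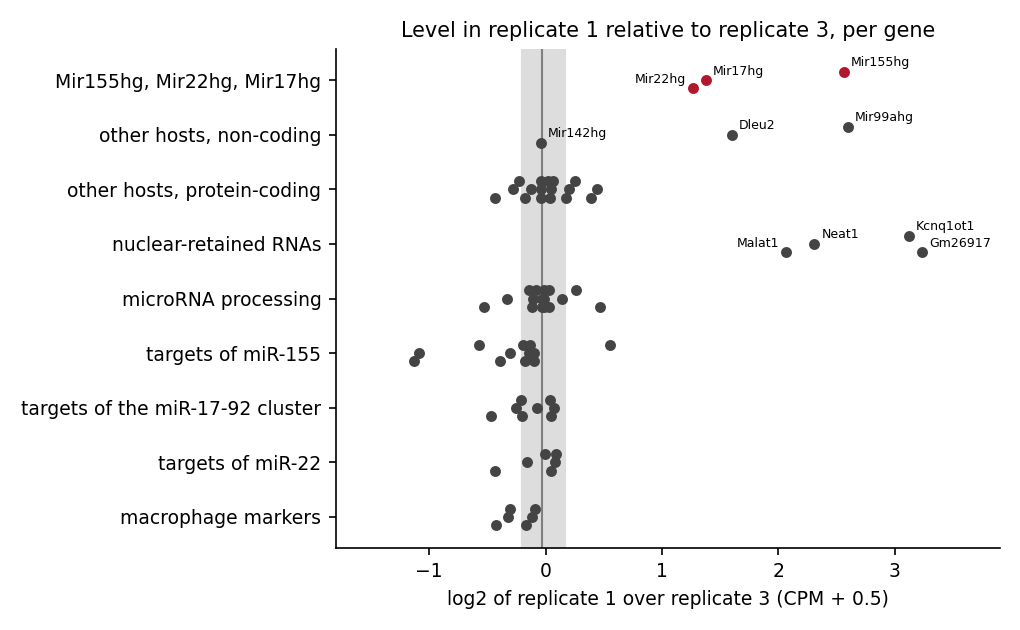
Log2 of replicate 1 over replicate 3 (CPM + 0.5) for each tested gene of each list; the grey line and band are the median (-0.03) and quartiles (-0.20 and 0.17) of all 13827 tested genes. Mir155hg (2.56), Mir22hg (1.26) and Mir17hg (1.37) lie to the right of the protein-coding hosts and of the processing, target and macrophage lists. Of the other non-coding hosts, Mir99ahg (2.60) and Dleu2 (1.60) also lie to the right, and Mir142hg (-0.04) does not. The RNAs listed as nuclear-retained run from 2.065 (Malat1) to 3.23 (Gm26917). Mir155hg falls within that span, and Mir22hg and Mir17hg lie below it.

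By TPM pattern over the 3 libraries (Euclidean distance of log2(TPM + 1), among 9255 expressed coding and long non-coding genes), the gene nearest to Mir155hg was Xist, the non-coding RNA of X inactivation, with 28.9, 7.13 and 2.54 TPM in replicates 1, 2 and 3 (distance 0.751). Gm14636 followed at 0.871 and Mir22hg itself at 1.00. The genes nearest to Mir22hg were Ogt, the O-GlcNAc transferase, with 13.0, 6.43 and 6.03 TPM (distance 0.204), Nfat5, a factor of the osmotic stress response, with 11.7, 4.85 and 6.55 TPM (0.371), and Mdm4, a regulator of p53, with 12.5, 6.68 and 8.08 TPM (0.481). Mir17hg lies below the level searched, and its nearest genes, 4931414P19Rik, Trpv4 and Fdxr, were far from it at 1.61 to 1.65. With 3 libraries such nearness is mostly a matter of level and of replicate 1.

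The proteins that cut and load microRNAs were all present as RNA. Of 16 genes of processing and silencing, 16 were expressed, with ratios between libraries of 1.02-fold to 1.44-fold, below those of all 3 hosts. The nuclear step was at 10.5 TPM for Drosha and 2.73 TPM for its partner Dgcr8, the export step at 4.39 TPM for Xpo5, and Dicer1 at 7.74 TPM. Of the Argonautes Ago2, the one that cleaves its targets, was highest at 10.2 ± 2.61 TPM, and Ago4 lowest at 1.61 ± 0.148 TPM (SD, n = 3 each). The RNA helicase Ddx5, a helper of Drosha, was highest of the list at 177 TPM.

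Reported targets of miR-155 were present in the same libraries, and 11 of 13 were expressed. Arg2, an arginase, was among the exceptions, at 0.65, 0.11 and 0.35 TPM in replicates 1, 2 and 3. Socs1, which blocks cytokine receptor signalling, had 5.77, 9.09 and 13.3 CPM in replicates 1, 2 and 3, and Cebpb, a factor of myeloid genes, had 60.3, 124 and 129 CPM. Bach1, a repressor of haem oxygenase, had 159, 172 and 237 CPM. In these 3 genes replicate 1 was the lowest library, where Mir155hg was the highest. Inpp5d was also lowest there but moved only 1.18-fold, at 209, 248 and 229 CPM in replicates 1, 2 and 3. Arg2 went the other way and was highest in replicate 1, at 1.10, 0.259 and 0.592 CPM. Of the 12 targets tested, 9 were lowest in replicate 1 and 8 were highest in replicate 3, beside 38.2% and 38.0% of all 13827 tested genes. Of the 6 macrophage markers 4 were lowest in replicate 1 and 3 were highest in replicate 3. With 3 libraries no relation between a host and its targets can be tested.

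The sites by which miR-155-5p could pair with these messages are short, and 4 are shown from 3′ untranslated regions of the GENCODE M21 transcripts with the highest TPM, in the sense of the message, with the match to the seed (and the following A) in capitals.
Socs1, chr16:10784204-10784226, minus strand: gccgctgtgccgcAGCATTAAgt
Inpp5d, chr1:87719825-87719847, plus strand: gatgtttttaaaaAGCATTAAag
Bach1, chr16:87732175-87732197, plus strand: ctatgaacagtttAGCATTAAgg
Cebpb, chr2:167690353-167690375, plus strand: cttttccgtttcgAGCATTAAag
Of the 13 listed targets, 10 held a match of at least 7 letters in that region (AGCATTA or GCATTAA, searched on the sense strand, overlaps counted once), against 12.1% of 8787 such regions of expressed coding transcripts. The targets were listed because they had been reported, so this count is no evidence of their own, and a match is not a measured site.

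Reported targets of the miR-17-92 cluster were mostly expressed. Their host did not reach 1 TPM in any library, and the microRNAs themselves were not measured. Of 8, 7 were expressed, and ratios between libraries ran from 1.07-fold to 1.38-fold. Sirpa, the receptor for the don't-eat-me signal, was highest at 682 TPM, Bcl2l11, which promotes cell death, had 26.6 TPM, and Cdkn1a, the cell cycle inhibitor p21, had 187 TPM. The 3′ untranslated region searched for Sirpa held no seed match to miR-17-5p, miR-18a-5p, miR-19a-3p or miR-92a-3p. For miR-17-5p, 6 of the 8 listed targets held a match, beside 19.6% of 8787 such regions. As above, this count is no evidence of its own. Phlpp2, a phosphatase, was the exception, at 1.14, 0.81 and 1.37 TPM. All 6 reported targets of miR-22 were expressed, from 2.32 TPM for Hdac4 to 57.7 TPM for Max, with ratios of 1.07-fold to 1.55-fold. Of the targets tested, 1 of 8 for the cluster and 2 of 6 for miR-22 were highest in replicate 1, beside 29.5% of all 13827 tested genes. Replicate 1 was the highest library of both hosts, and no relation between host and targets was tested.

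Depth was 47972062 expected counts in replicate 1, 54409436 in replicate 2 and 53491957 in replicate 3. All 6 macrophage markers (Lyz2, C1qb, Mpeg1, Csf1r, Adgre1 and Cd68) were expressed, with a median of 765 TPM, and they summed to 6676, 5906 and 7649 TPM. Markers of T cells, B cells, neutrophils, red cells with platelets, and dendritic cells, 3 each, had no expressed gene, and no list summed to more than 0.35 TPM in a library. Of the defining markers Cd3g and Ly6g were listed at 0 in all 3 libraries.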

How the data were processed

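Total RNA of the cytosolic fraction was sequenced in 3 libraries of 1 group. Expected counts (estimated reads, not normalised) and TPM per gene and per transcript were deposited by the authors in a gene table and a first transcript table, with a posterior SD score of each count and, for each transcript, its percent of the host gene's TPM. A second transcript table, also deposited by the authors, holds estimated counts and TPM. Notes deposited beside the tables name assembly mm10 and annotation GENCODE M21. Per the file headers the layouts are those of RSEM and, for the second transcript table, kallisto; tool, aligner, version and strandedness were not given in the sources used here.

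All 55536 gene identifiers matched GENCODE M21. Another 26345 entries that name no gene (0.0785%, 0.0521% and 0.0251% of counts in replicates 1, 2 and 3) were left out. Counts were rounded, scaled with TMM (edgeR 4.0.16, R 4.3.3), and tested per gene at a mean count of at least 10 with a Poisson chi-square of 2 degrees of freedom, which was tested on simulated data. DESeq2 1.42.0 gave alternative size factors. Poisson intervals and medians used Python 3.11.15 with scipy 1.17.1. Intervals and floors cover counting error only, since reads without molecular identifiers are not independent molecules.

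The hosts, lists and tests were chosen with earlier results of these data known. Genes named are the 3 hosts, their transcripts and hairpins, the 3 genes nearest in pattern to each, the highest and lowest of each list, and those whose biology the text needs. The values of 1 listed target are not reported here.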

Additional observations from a re-analysis of the deposited data

How the results depend on the processing

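Between-library ratios rest on 3 libraries, and those of Mir17hg on as few as 4 reads. Leaving out a replicate moved the ratio of the highest to the lowest library between 1.50 and 5.91 for Mir155hg and between 1.28 and 2.40 for Mir22hg, with the low ends without replicate 1. The mean TPM without replicate 1 was 4.83 for Mir155hg, 5.82 for Mir22hg and 0.025 for Mir17hg. TPM rescaled to protein-coding genes alone gave means of 39.3 for Mir155hg, 27.1 for Mir22hg and 0.277 for Mir17hg, because that alternative divides by a smaller total. Library totals without TMM factors gave a ratio of 6.61 for Mir155hg and 2.68 for Mir22hg, with the counts unchanged and only the scaling different. The second transcript table, an alternative chosen after seeing the data, was scaled to its own totals, also without TMM factors. Its ratio was 7.78 for Mir155hg and 2.90 for Mir22hg, to be set beside 6.61 and 2.68. The share of TPM on Mir155hg-201 there was 87.7% and that on Mir22hg-202 was 55.6%. The cause of the differences between the 2 transcript tables was not tested. With 0.1 in place of 0.5 added to CPM the ratio of Mir17hg was 6.15, since the added value is of the size of its lowest levels. Genes called heterogeneous numbered 9736 (70.4% of those tested), with 10193 (45.5% of more genes tested) under no minimum count, 9704 with DESeq2 size factors and 7106 to 7359 without 1 replicate. Host genes at a TPM of at least 1 numbered 19, with 15 at a TPM of at least 5 and 19 to 20 without 1 replicate. These counts stayed within 1.5 times of the first. No paired analysis was possible because there is a single group.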
